A study of Triticum aestivum with 2 samples.

Results

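The antisense-specific list of this wheat study holds 80 probe sets, and 9 of them were examined here. They are the 5 probe sets listed under secondary metabolism, the 2 listed under growth and the 2 for 40S ribosomal proteins. The list was made from these same arrays by requiring a high value and a Present call in the WT assay, and not both of these in the 3'IVT assay. A high WT and a low 3'IVT signal of the 9 is therefore a description of how they were chosen and not a finding. The 61 other probe sets that carry the same design cluster number are not on the list, and those are the readings to look at. One of them with a high signal in the WT assay alone could have entered the list itself. That none of them was high in the WT assay alone is thus in part set by the selection. The names are putative functions given by sequence similarity. The compartment is plain for the 40S proteins of the cytosolic ribosome, while the type of the elongation factor is not stated, so its nuclear origin could not be checked.

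RNA from 5 tissues of the spring wheat 'Chinese Spring' was mixed in equal parts, and both arrays received this same pool. The tissues were dark-germinated seed, young shoot, flag leaf, and spike before and after flowering. The WT assay (labelled Antisense) primes the RNA at random and yields labelled cDNA in the orientation of the original RNA, and the 3'IVT assay (labelled Sense) primes at the poly(A) tail and yields labelled cRNA of the opposite orientation. Each assay was hybridized to 1 Wheat Genome Array. The signals thus come without replicate error, no test between the assays was possible, and precision is limited by there being 1 array each. The 6 probe sets listed for RUBISCO small subunit, RUBISCO activase, carbonic anhydrase and chlorophyll a/b binding protein, which mark green tissue, had 3'IVT log2 signals of 14.17 to 15.57. Of the 3 probe sets that could be named as grain storage proteins, the 2 whose names carry the letter S for a sense design had 7.44 and 7.74 and the 1 with the letter A for an antisense design had 1.74, none of them above the 3'IVT threshold.

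Several of the 9 functions belong to one stretch of metabolism. Cystathionine beta-lyase forms homocysteine on the way to methionine, and S-adenosylmethionine synthetase joins methionine to the adenosyl group of ATP. S-adenosylmethionine decarboxylase commits the product to the polyamines spermidine and spermine. Rhodanese-like domains are folds of sulfur transfer enzymes. Alpha-N-arabinofuranosidase removes arabinose from cell wall polysaccharides, and COBRA, known from Arabidopsis, is a membrane-anchored protein needed for oriented cellulose deposition. The 40S proteins S3a and S9 serve protein synthesis, while the process served by the listed elongation factor is open because its type is not stated.

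Affymetrix writes the letter S or A into a probe set name for a design sequence taken in sense or antisense orientation. If the orientation is right, an S-lettered probe set reads antisense RNA in the WT assay and sense RNA in the 3'IVT assay, and an A-lettered probe set does the reverse. Over the whole array A-lettered probe sets did not have the lower 3'IVT median (7.31, against 6.46 for S-lettered). Above the 3'IVT threshold were 16.2% of the A-lettered and 17.5% of the S-lettered. Whether the letter gives the strand of a single probe set was not tested. Of the 9 probe sets 5 carry the letter A (55.6%), against 15 of the other 71 on the list (21.1%) and 17.4% of the 61115 wheat probe sets of the array. No test was made of this difference between lists chosen on the same signals.

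Signals are given as the log2 of the deposited MAS5 intensity, and the threshold of each assay is the lowest of 9 probe sets for bioB, a bacterial control added at the detection limit. It lay at 15.19 in the WT assay and at 9.69 in the 3'IVT assay. Of 63 probe sets for reporter genes, which wheat lacks, the highest signal was 11.76 in the WT assay and 7.02 in the 3'IVT assay, and the median was 6.57 and 3.10. All 9 probe sets were above the threshold in the WT assay, where 0.367% of wheat probe sets were, and none was above it in the 3'IVT assay, where 17.3% were. Above the WT threshold alone were 0.159% of wheat probe sets. Nothing can be read from these counts, because the selection fixed them. With the bioB median as threshold 5 of the 9 remained above in the WT assay, and with the highest bioB value 2.

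Among the enzymes of sulfur amino acid and S-adenosylmethionine metabolism, the cystathionine beta-lyase probe set Ta.6997.3.A1_at had a signal of 76380 (log2 16.22) in the WT assay and of 111 (6.80) in the 3'IVT assay. The S-adenosylmethionine synthetase probe set TaAffx.53048.1.S1_at had 88459 (16.43) in the WT assay and 25.9 (4.695) in the 3'IVT assay. The S-adenosylmethionine decarboxylase probe set Ta.1058.2.A1_at had 135540 (17.05) in the WT assay and 574 (9.16) in the 3'IVT assay. It was the nearest of the 9 to the 3'IVT threshold, 0.53 log2 units below it. The rhodanese-like probe set Ta.1131.2.S1_a_at had 171750 (17.39) in the WT assay and 243 (7.93) in the 3'IVT assay.

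For the cell wall, the arabinofuranosidase probe set Ta.23014.1.A1_at had 55117 (15.75) in the WT assay and 32.4 (5.02) in the 3'IVT assay. The COBRA-like probe set TaAffx.143995.13.A1_at had 56488 (15.79) in the WT assay and 14.4 (3.85) in the 3'IVT assay, the lowest 3'IVT signal of the 9. Among the rest, the elongation factor probe set TaAffx.52403.1.S1_at had 62023 (15.92) in the WT assay and 77.6 (6.28) in the 3'IVT assay. The S3a probe set Ta.28603.1.A1_at had 81520 (16.31) in the WT assay and 148 (7.21) in the 3'IVT assay. The S9 probe set Ta.24981.1.S1_at had 53443 (15.71) in the WT assay and 363 (8.50) in the 3'IVT assay. S9 was the nearest to the WT threshold, 0.52 log2 units above it. The highest wheat probe set just under the WT threshold that was also under the 3'IVT threshold, TaAffx.6447.1.S1_x_at, had 15.17 and 8.79.

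Ranked within its own array, each of the 9 stood between the percentiles 99.71 and 99.87 of the WT assay. They were spread in the 3'IVT assay from the percentile 18.4 (COBRA-like) to 78.2 (S-adenosylmethionine decarboxylase), with a median of 52.2. The 5 for cystathionine beta-lyase, S-adenosylmethionine synthetase, arabinofuranosidase, COBRA-like and elongation factor had 3'IVT signals below the highest reporter gene. The remaining 4, for S-adenosylmethionine decarboxylase, rhodanese-like protein, S3a and S9, lay above it. In the 3'IVT assay 44.9% of wheat probe sets did so.

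**Figure D1:**
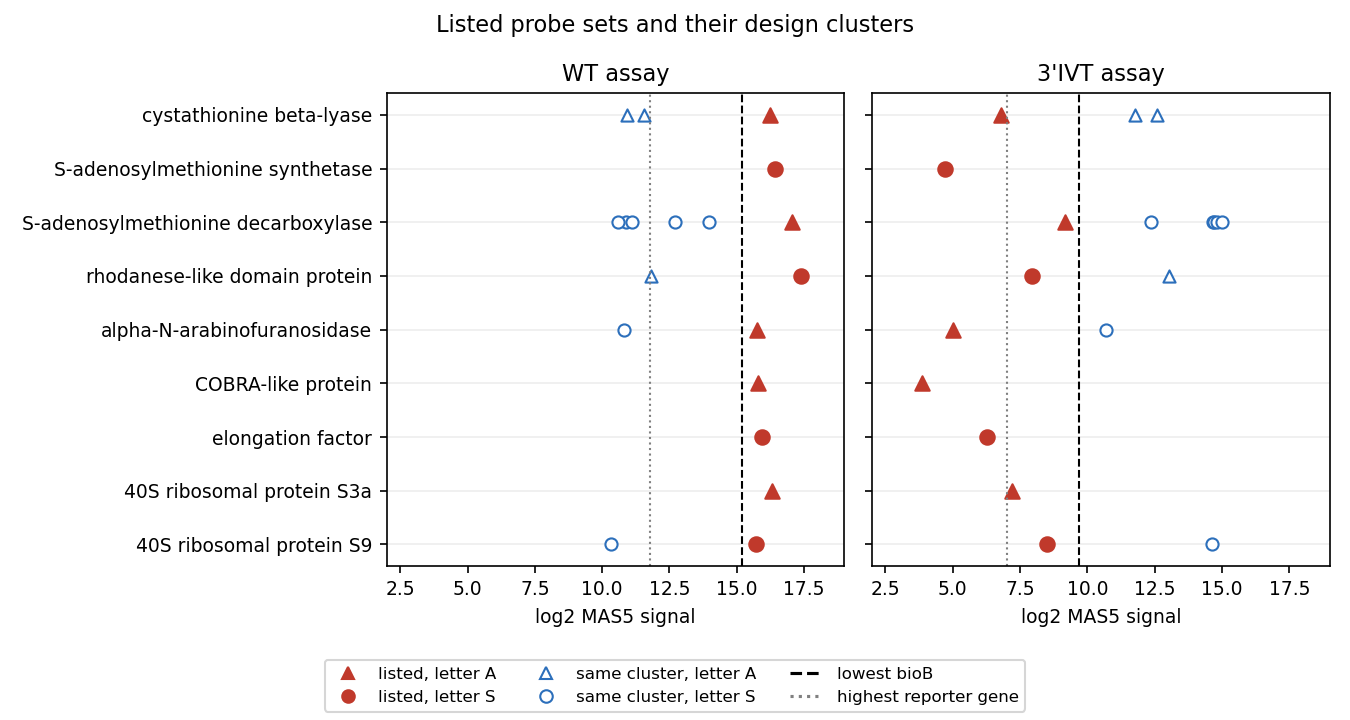
Log2 MAS5 signal in the WT assay (left) and in the 3'IVT assay (right) of the 9 listed probe sets (filled red) and of the other probe sets of their design clusters (open blue); triangles carry the letter A and circles the letter S, the dashed line is the lowest bioB probe set and the dotted line the highest reporter gene. The 51 others of the COBRA-like cluster are left out here. All 10 open symbols lie right of the dashed line in the 3'IVT assay and left of it in the WT assay.

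The design cluster number groups sequences that Affymetrix took together when the array was made. In 6 of the 9 clusters there were other probe sets, and for S-adenosylmethionine synthetase, elongation factor and S3a the listed probe set was alone. Of all 61 others, 13 (21.3%) were above the 3'IVT threshold, near the 17.3% of wheat probe sets. In the clusters of the other 71 listed probe sets, 82 of 272 unlisted probe sets (30.1%) were above it. Leaving aside the large COBRA-like cluster, 10 other probe sets remained, and 10 of 10 were above the 3'IVT threshold. The 272 were not divided by cluster size, so no like share stands beside this count. None of the 10 was above the WT threshold. Their 3'IVT signals ran from 10.69 to 15.01 with a median of 13.83, and their WT signals from 10.34 to 13.97 with a median of 11.01. Of these 10, 6 carry a suffix for probes shared between transcripts, and without them the count is 4 of 4. The 10 come from 5 clusters, and 5 of them from that of S-adenosylmethionine decarboxylase, so they are not independent readings.

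The cluster of S-adenosylmethionine decarboxylase was the best covered of these. Its 5 other probe sets all carry the letter S. In the WT assay they had 10.87 (Ta.1058.2.S1_at), 11.11 (Ta.1058.2.S1_x_at), 12.69 (Ta.1058.1.S1_x_at), 13.97 (Ta.1058.3.S1_x_at) and 10.59 (Ta.1058.4.S1_at). In the 3'IVT assay the same probe sets had 14.71, 14.81, 14.67, 15.01 and 12.37. All 5 were thus far over the 3'IVT threshold, and all 5 were under the WT threshold, whereas the A-lettered probe set of the cluster stood the other way round. Only 0.367% of wheat probe sets pass the WT threshold, and the 5 still stood between the percentiles 91.4 and 99.3 of the WT assay. The first 2 share their design sequence with Ta.1058.2.A1_at. A probe set of another cluster that is annotated to the same gene as Ta.1058.1 and Ta.1058.3 (LOC543372), TaAffx.120885.1.S1_s_at, had 15.10 in the WT assay and 14.42 in the 3'IVT assay. It missed the WT threshold by less than 0.1 log2 units and carries probes shared between transcripts.

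Signals of different probe sets depend on their probes, so probe sets of a cluster were compared by how they differed between the assays (WT minus 3'IVT, log2). This difference had a median of 1.04 over all wheat probe sets, which was subtracted where a difference is called centred. Probe sets of the same design sequence and letter had a pooled SD of 1.89 in it (5605 groups), the only measure of spread for wheat sequences. For the spike-in controls, which are added to both hybridizations, its median was 5.47 and its pooled SD within a control region 0.20 (27 probe sets). The centred difference of the 9 ran from 6.17 for S9 and 6.85 for S-adenosylmethionine decarboxylase to 10.70 for S-adenosylmethionine synthetase and 10.90 for COBRA-like, with a median of 8.43. That of the 10 others ran from -5.35 to -0.90 with a median of -2.76, close to the median of -3.23 over all probe sets above the 3'IVT threshold. Relative to the spike-in controls the median of the 9 was 3.99, positive as the selection against bioB makes it.

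**Figure D2:**
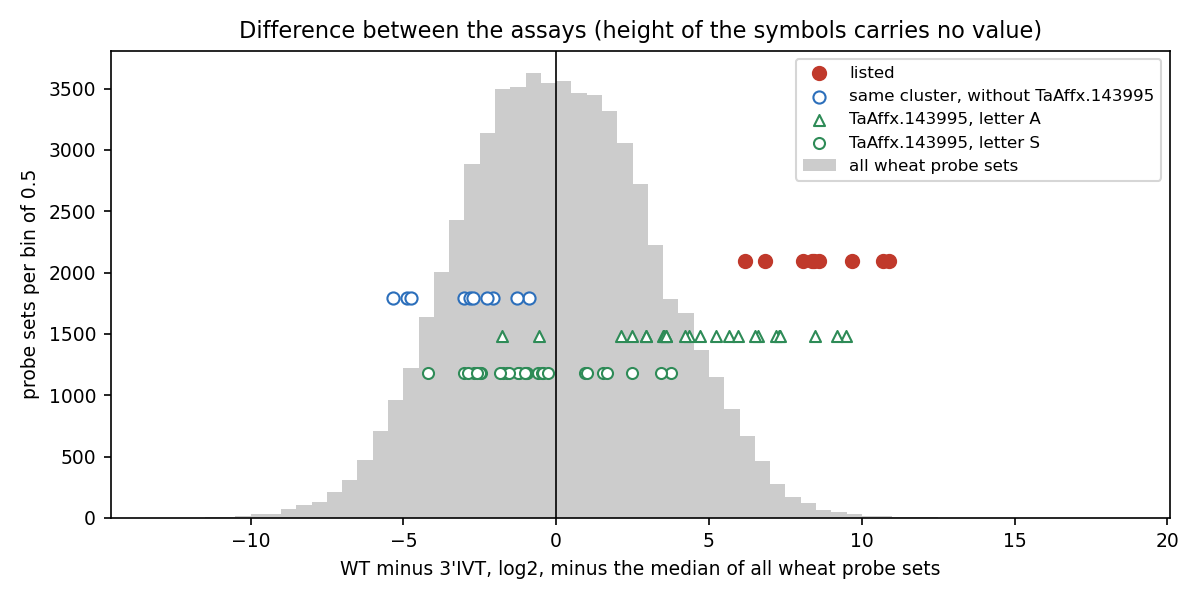
Histogram of the centred difference between the assays (x axis, WT minus 3'IVT on the log2 scale; y axis, number of wheat probe sets per bin), with the 9 listed probe sets, the 10 others of the small clusters and the 51 others of TaAffx.143995 placed at arbitrary heights. The 9 lie between 6.17 and 10.90, the 10 between -5.35 and -0.90.

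In the S-adenosylmethionine decarboxylase cluster the A-lettered probe set had a difference of 7.88 and the 5 S-lettered ones a mean of -2.47, which is 10.35 log2 units apart. Within the shared design sequence alone the distance was 11.66. In the arabinofuranosidase cluster, Ta.23014.2.S1_at had 10.82 in the WT assay and 10.69 in the 3'IVT assay. The listed A-lettered probe set and this S-lettered one were 10.60 log2 units apart in the difference. Each of these distances includes a listed probe set, so the selection made it large, and it is given as a description.

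The rhodanese-like cluster had the letters the other way round. Its listed probe set is S-lettered, and the other, Ta.1131.1.A1_at, is A-lettered and had 11.80 in the WT assay and 13.02 in the 3'IVT assay. The A-lettered minus the S-lettered difference was -10.68. The A-lettered probe set was thus the one above the 3'IVT threshold, so the letter did not tell which probe set of this cluster was bright in which assay.

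For cystathionine beta-lyase all 3 probe sets of the cluster carry the letter A. Ta.6997.1.A1_a_at had 10.91 in the WT assay and 12.58 in the 3'IVT assay. Ta.6997.3.A1_a_at had 11.55 in the WT assay and 11.78 in the 3'IVT assay, although it has the design sequence and the letter of the listed Ta.6997.3.A1_at. The suffix a marks probes common to several transcripts of one gene. Between these probe sets of one sequence and letter the difference between the assays varied by 9.66 log2 units. The median range in the 5605 such groups of the array was 1.61, and 17 of them (0.303%) varied as much or more. The listed probe set was chosen for its extreme signals, so this rank is a description.

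The S9 cluster gave a similar picture with the letter S alone. Ta.24981.2.S1_a_at had 10.34 in the WT assay and 14.64 in the 3'IVT assay, a centred difference of -5.35, against 6.17 for the listed Ta.24981.1.S1_at. Both are annotated to one gene, LOC543424, and represent separate design sequences. Probe sets of the same letter and the same annotated gene therefore stood on opposite sides of the thresholds in both assays.

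In the WT assay the 10 others had higher signals than most wheat probe sets over the 3'IVT threshold. This was less marked beside probe sets of similarly high 3'IVT signal. Each of the 10 had a WT signal above 10.08, the upper quartile of the 10561 wheat probe sets over the 3'IVT threshold, whose median was 8.98. WT signals were higher overall where 3'IVT signals were high. Among the 2608 probe sets with a 3'IVT log2 signal above 12 the WT median was 9.97 and the upper quartile 11.23, and of the 8 others in this range 8 were above that median and 3 above that quartile. Only 3 of the 10 lay above the highest reporter gene in the WT assay, Ta.1058.1.S1_x_at, Ta.1058.3.S1_x_at and, by a narrow margin, Ta.1131.1.A1_at.

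The COBRA-like probe set belongs to a cluster of 52 probe sets from 24 design sequences, 25 with the letter A and 27 with the letter S. The cluster is not one gene: its probe sets with an annotation are assigned to LOC732708 (TaAffx.143995.1.S1_at) and LOC543360 (4 probe sets of TaAffx.143995.11). Its 51 other probe sets are not on the list, which one high in the WT assay alone could have entered. None of them was above the WT threshold, where 0.367% of wheat probe sets were. Above the 3'IVT threshold were 3 (5.88%), all with the letter S, which is a smaller share than the 17.3% of wheat probe sets. These were TaAffx.143995.3.S1_s_at (10.37 in the WT assay and 13.52 in the 3'IVT assay), TaAffx.143995.13.S1_at (11.03 and 12.68) and TaAffx.143995.17.S1_s_at (10.48 and 10.65).

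Below the thresholds, the letters of this cluster separated in both assays. The 24 A-lettered probe sets other than the listed one had WT signals of 3.47 to 14.30 with a median of 10.60, and the 27 S-lettered ones 3.96 to 11.03 with a median of 7.77. In the 3'IVT assay the order was turned, with 1.65 to 7.75 and a median of 4.31 for the 24 A-lettered, against 3.09 to 13.52 and a median of 7.15 for the 27 S-lettered. The ranges overlapped in both assays. Above the highest reporter gene of the WT assay were 8 of the 24 A-lettered and none of the 27 S-lettered probe sets, where 3.26% of wheat probe sets were. Outside the cluster, A-lettered signals of sequences that carry both letters also passed it more often than this share. An excess over all wheat probe sets was therefore not particular to the cluster. In the 3'IVT assay the counts above the highest reporter gene were 2 of 24 A-lettered and 14 of 27 S-lettered, where 44.9% of wheat probe sets were.

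The centred difference was above 0 for 22 of these 24 A-lettered probe sets, against 38.3% of all A-lettered wheat probe sets. This is not particular to the cluster. The letter A also had a centred difference above 0 in most of the 147 sequences outside it that carry both letters. It was above 0 for 7 of the 27 S-lettered ones, against 52.5% of all S-lettered. Over the whole array A-lettered probe sets had the lower median of the uncentred difference (0.15, against 1.24 for S-lettered). Sequences that carry both letters went the same way in the cluster and outside it. The difference was larger for A than for S in 19 of 21 in the cluster, with a median distance of 6.43, and in 117 of the 147 others, with a median of 4.62. The 21 include the COBRA-like sequence and the 147 include that of S-adenosylmethionine decarboxylase. The A-lettered probe sets of both were chosen on these signals, so the selection fixed their part in the counts. With the listed probe set included, the mean difference was 6.05 for the letter A and 0.32 for the letter S, 5.73 log2 units apart. The exceptions among the A-lettered were TaAffx.143995.6.A1_at (4.89 in the WT assay and 5.64 in the 3'IVT assay) and TaAffx.143995.8.A1_at (3.47 and 2.98), both within the range of the reporter genes.

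**Figure D3:**
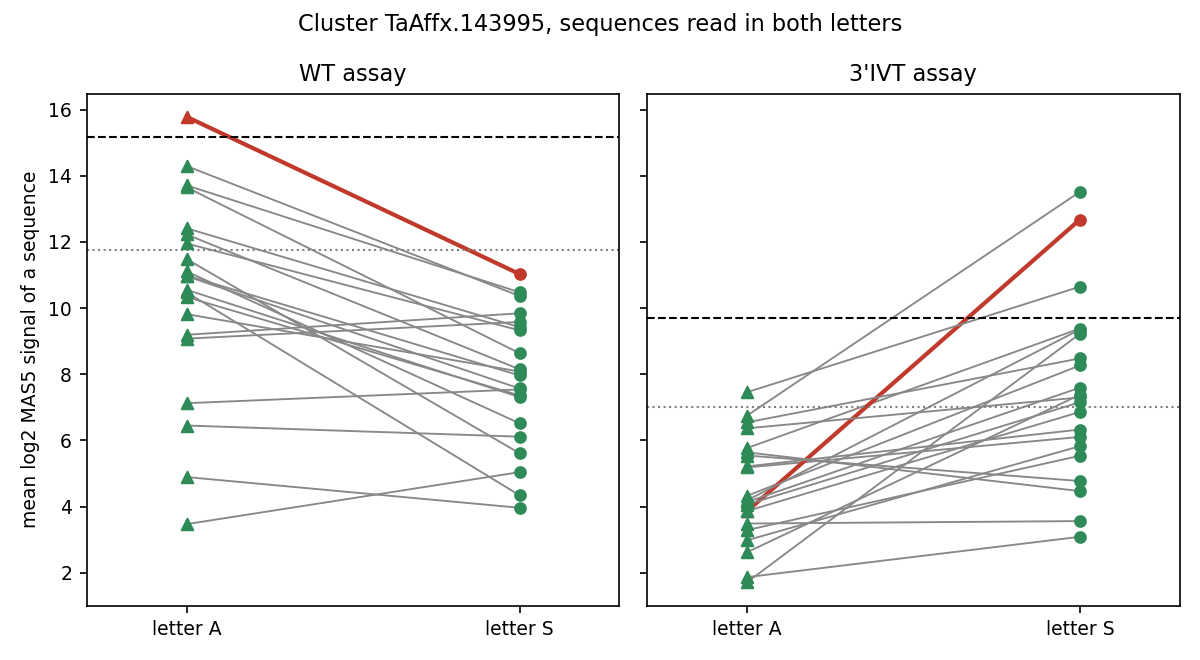
Mean log2 MAS5 signal of the A-lettered (triangles) and S-lettered (circles) probe sets of each of the 21 design sequences of TaAffx.143995 that have both, in the WT assay (left) and in the 3'IVT assay (right), with the COBRA-like sequence in red, the lowest bioB probe set dashed and the highest reporter gene dotted. Most lines run down from A to S in the WT assay (17 of 21) and up in the 3'IVT assay (19 of 21).

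For 21 of the 24 design sequences the array carries both letters. The A-lettered signal (mean of the probe sets of a sequence) was higher than the S-lettered in the WT assay for 17 of 21 and lower in the 3'IVT assay for 19 of 21, and both held for 16. Outside this cluster 147 sequences of the array have both letters, and both held for 93 of them (63.3%). The listed COBRA-like probe set is counted in the 21, and the listed probe set of Ta.1058.2 in the 147. The COBRA-like sequence TaAffx.143995.13 had 15.79 for A and 11.03 for S in the WT assay, and 3.85 for A and 12.68 for S in the 3'IVT assay. The difference between the assays was 13.58 log2 units larger for A than for S. The A-lettered values are those of the listed probe set, so the size of this distance was set in part by the selection. Over the 21 the median of this distance was 6.43 and the range -1.28 to 13.58.

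Sequences of the cluster with a high A-lettered signal in the WT assay tended to have a high S-lettered signal in the 3'IVT assay. Across the 21 sequences the WT signal of the letter A and the 3'IVT signal of the letter S had a Spearman rho of 0.88. Of the 21, 14 were not above the highest reporter gene in the first of these signals and 9 in the second, a range in which the order of signals is not reliable. The 3 highest in one were also the 3 highest in the other: TaAffx.143995.13, with 15.79 for A in the WT assay and 12.68 for S in the 3'IVT assay, TaAffx.143995.3 with 14.30 and 13.52, and TaAffx.143995.17 with 13.71 and 10.65. Without the sequences 3 and 13, the 2 with the highest S-lettered 3'IVT signal, rho was 0.84. The opposite combination, the 3'IVT signal of A with the WT signal of S, had 0.30, both letters within the WT assay 0.62 and within the 3'IVT assay 0.36. For the 147 other sequences, Ta.1058.2 included, rho between A in the WT assay and S in the 3'IVT assay was 0.68. Sequences are not replicates, and the points share the arrays, the RNA pool and, within a sequence, the base composition, so no p-value is given. Without probe sets shared between transcripts rho in the cluster was 0.74.

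**Figure D4:**
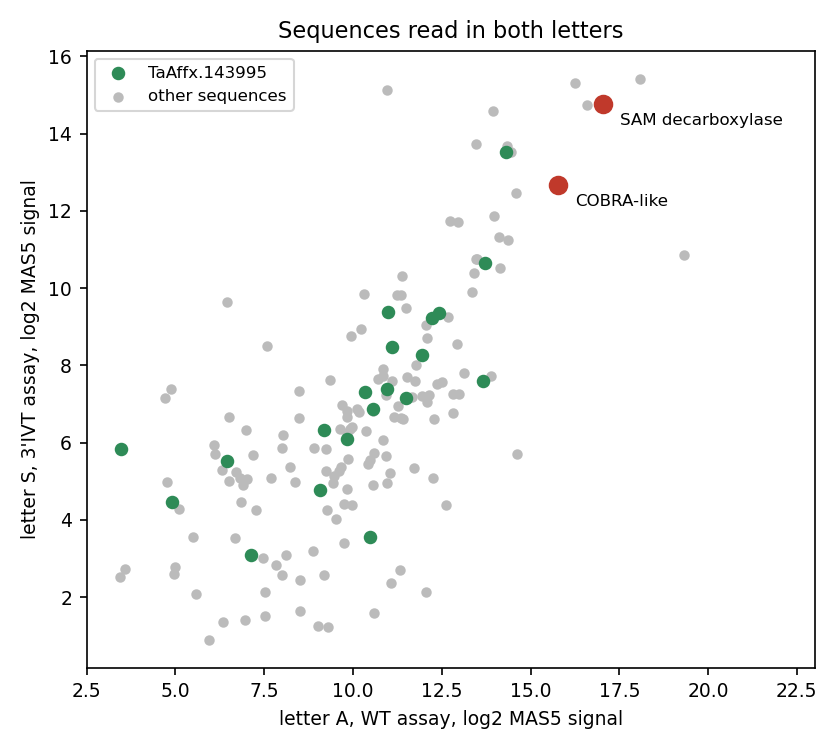
Log2 MAS5 signal of the letter A in the WT assay (x axis) against that of the letter S in the 3'IVT assay (y axis), 1 point per design sequence with both letters, with the 21 of TaAffx.143995 in green, the COBRA-like sequence and S-adenosylmethionine decarboxylase in red and the other sequences in grey. The cluster rises from lower left to upper right with a Spearman rho of 0.88, and both red points lie at the upper right, where the selection on the x axis signal puts them.

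S-adenosylmethionine decarboxylase is the other one of the 9 whose design sequence has both letters. Its means for Ta.1058.2 were 17.05 for A in the WT assay and 14.76 for S in the 3'IVT assay. The first of these values is one the selection used, as it is for the COBRA-like sequence.

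Other genes of these pathways could hardly be followed. Only 1273 of the wheat probe sets have a gene symbol, and a search of names and synonyms for 40S ribosomal proteins, elongation factors, S-adenosylmethionine and polyamine synthesis, sulfur amino acids and cell wall enzymes found 2 probe sets, both for the 40S protein RPS29. They had 2.81 (Ta.24254.3.S1_x_at) and 9.75 (Ta.30687.2.S1_x_at) in the WT assay, and 7.99 and 8.99 in the 3'IVT assay, so 0 of 2 passed either threshold. The Affymetrix control probe sets for the elongation factor 1-alpha gene of wheat, looked up after the other values, had 5.29 to 8.09 in the WT assay and 5.07 to 6.95 in the 3'IVT assay. All 3 lay below the highest reporter gene in both assays, a range in which presence or absence of the transcript cannot be told. Whether these probe sets read the transcript in this pool was not tested, nor whether the listed elongation factor is of this type.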

How the data were processed

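Pooled wheat RNA was hybridized to 2 arrays, of which 1 received WT target and the other 3'IVT target. The deposited table holds 1 linear signal intensity per probe set and array, made by the authors with MAS5 per the labels (version not given in the sources used here), which scales each array on its own. The study's own list rests on RMA values and Present calls that were not used here as values. The depth of an array is set by its background, for which reporter gene probe sets served, except 1 as bright as creX. Of 61290 probe sets, 111 Affymetrix controls and 64 reporter genes were left out.

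Log2 signals, ranks, counts above bioB and differences were computed in Python 3.11.15 (pandas 2.3.3, numpy 2.4.6, scipy 1.17.1; plots by matplotlib 3.10.9), and the steps were tested on simulated data. A cluster is the probe set name up to its first number, a design sequence up to its second. The members and lists were chosen with earlier results of these data known. Named are all members, the probe sets of clusters with 15 or fewer, and in the COBRA-like cluster those of the same sequence and the highest. Others there were named after their values were seen, as were TaAffx.120885.1.S1_s_at and TaAffx.6447.1.S1_x_at. Gene names come from the platform annotation, of which 1272 of 1273 entries matched RefSeq (assembly IWGSC CS RefSeq v2.1, consulted only for gene names). In the 9 clusters 61 of 70 probe sets are unnamed there. Alternatives were other thresholds, quantile normalization, a floor, another centre, unshared probe sets and design sequences.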

Additional observations from a re-analysis of the deposited data

How the results depend on the processing

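No paired analysis was possible because each assay has 1 array and no test was made, and for the same reason no array could be left out. The median bioB value as threshold left 5 of the 9 probe sets above it in the WT assay and 5 above the WT threshold alone, and the highest bioB value left 2 and 2. With the highest reporter gene as threshold 4 of the 9 were above it in the 3'IVT assay, so that 5 were above it only with WT target. Of the 61 others it then put 11 above the threshold in the WT assay and 26 in the 3'IVT assay, and both RPS29 probe sets (2) in the 3'IVT assay. The others above the 3'IVT threshold were 13 in all, 5 without probe sets shared between transcripts and 4 within the design sequences of the listed probe sets. Outside the COBRA-like cluster 10 became 4 without shared probe sets, and these 4 were all that were left. Fewer probe sets enter these counts. The median centred difference of the 9 was 3.99 relative to the spike-in controls, against 8.43. The single values of the 9 lay between 1.73 and 10.66 over 44 recomputations, with a direction that the selection fixed. Distances between the letters moved by less than 1.89 log2 units under quantile normalization, a floor at the median reporter gene and unshared probe sets. The cause of these shifts was not tested. Signals near the reporter genes have no reliable order.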
